A study of Mus musculus with 16 samples.

Results

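Described here are 10 genes of alternative macrophage activation in oxLDL-loaded foam cells: *Il4ra*, *Klf4*, *Arg1*, *Mrc1*, *Mgl2*, *Folr2*, *Chil3*, *Chil4*, *Retnla* and *Pdcd1lg2*. They were taken by gene symbol from a table of 48432 genes, and all 10 were found. Alternative activation is the state that macrophages take up in response to IL-4 and IL-13. These cytokines bind receptors that share the IL-4 receptor α chain, and Janus kinases then phosphorylate STAT6, which enters the nucleus and induces a set of genes for arginine use, lectin receptors and secreted lectins. In atherosclerosis, macrophages of this kind are studied for matrix synthesis and repair, since ornithine made by arginase feeds the synthesis of proline for collagen.

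The cells were peritoneal macrophages (PM) of C57BL/6J mice, taken 5 days after injection of 3% aged thioglycolate and loaded with oxidized LDL (oxLDL, 50 μg/ml) for 48 h, in 4 groups of 4 samples. LDAH-Tg PM, labelled as LDAH overexpression, carry an *Ldah* transgene driven by the *Csf1r* promoter and enhancer, which act in macrophages and granulocytes, and the transgene was made in B6D2F1 embryos and backcrossed to C57BL/6. Their WT controls, here WT PM of the Tg line, have a genotype label that also names ApoE. LDAH-KO PM come from mice that lack parts of the *Ldah* coding exons in every tissue, and their littermate controls are here called WT PM of the KO line. LDAH is a lipid droplet-associated hydrolase, and the study asked how its gain and loss change the transcriptome of foam cells. The labels give neither age nor sex and do not say that the 4 samples of a group came from separate mice, and whether the *Apoe* deletion used for the atherosclerosis work was present in the PM of the Tg line was not found in the sources used here.

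All values are the authors' mean TPM (transcripts per 1000000, a level corrected for transcript length). With 1 mean for a group there is no SD, no test and no replicate check, the depth is unknown, and "higher" and "lower" refer to the means alone. *Ldah* itself (ENSMUSG00000037669.14) had a mean of 124 TPM in LDAH-Tg PM against 28.5 TPM in WT PM of the Tg line, and 27.9 TPM in LDAH-KO PM against 44.5 TPM in WT PM of the KO line. The paper reports the knockout as complete by PCR and western blotting. A mean for the whole gene does not show which exons its reads came from. *Apoe* lay between 7947 and 10404 TPM over the 4 groups. The macrophage genes *Csf1r* (94.2 to 108 TPM) and *Cd68* (3023 to 4959 TPM) were present in every group, while *Lyz2*, which macrophages express highly, had 10105 TPM in LDAH-Tg PM and is listed at 0 in the other 3 groups. In all, 25 genes are listed at 0 in 1 group or more and over 100 TPM in another, so a value of 0 is given here only as a listing. The means are of whole cultures, in which fewer cells of a type and less RNA per cell cannot be told apart.

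The 10 genes spanned a wide range of levels. *Mrc1* and *Arg1* stood first and second in every group and together held 83.2% of the summed TPM of the 10 genes in LDAH-Tg PM against 80.9% in WT PM of the Tg line, and 68.4% in LDAH-KO PM against 73.3% in WT PM of the KO line. *Folr2*, *Il4ra* and *Klf4* followed in this order in every group. The other 5 genes had means of at most 1.89 TPM in any group, although 3 of them, *Retnla*, *Chil3* and *Mgl2*, are textbook markers of macrophages treated with IL-4. The summed level was 308 TPM in LDAH-Tg PM against 304 TPM in WT PM of the Tg line, and 254 TPM in LDAH-KO PM and 286 TPM in WT PM of the KO line. Which neighbours in this order differ beyond the spread of the samples cannot be seen from means.

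**Figure D1:**
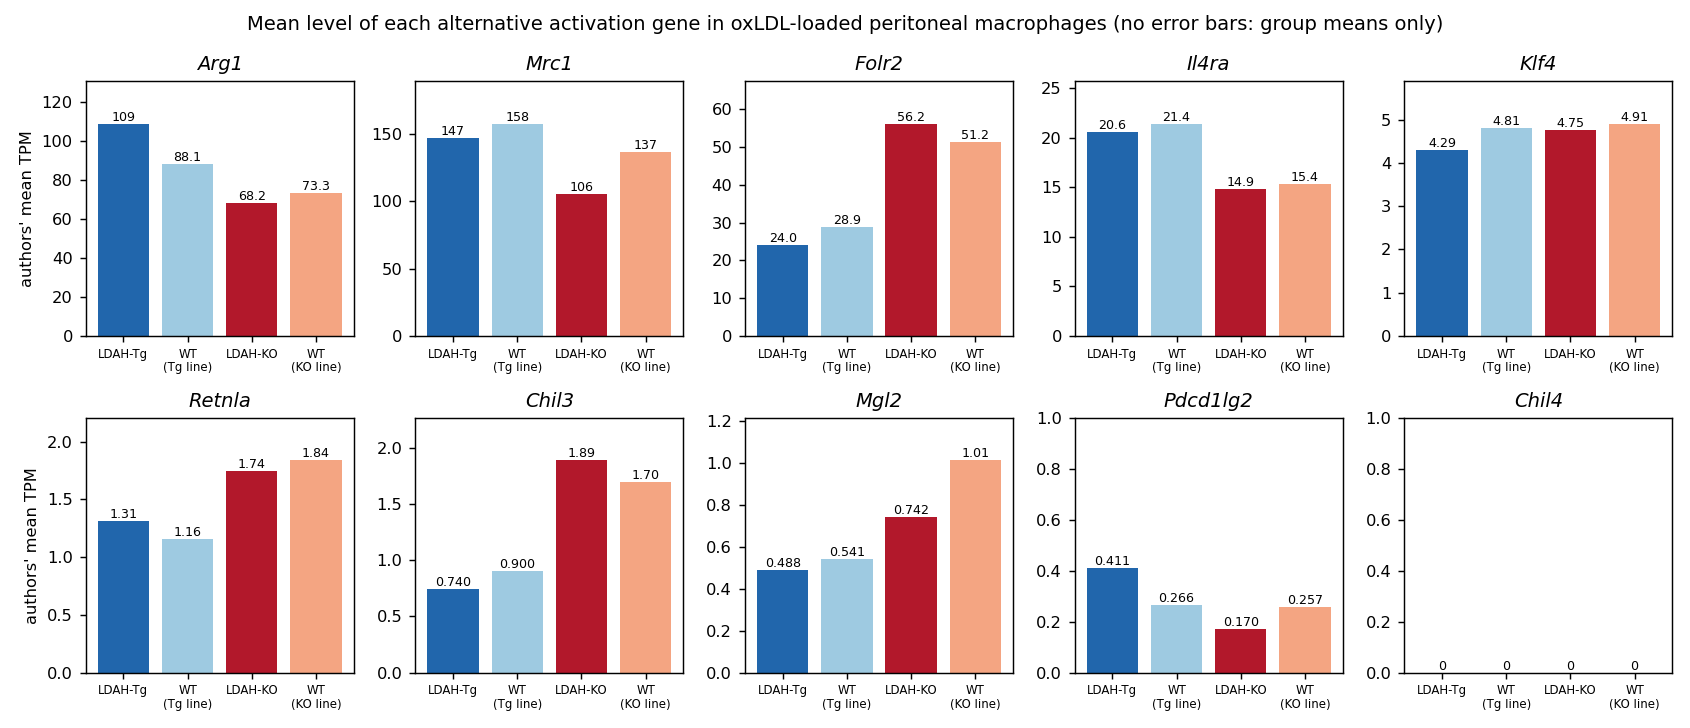
Bars give the authors' mean TPM of each of the 10 genes (1 panel a gene, each with its own linear axis from 0) in LDAH-Tg PM, WT PM of the Tg line, LDAH-KO PM and WT PM of the KO line, with no error bars since the table holds means alone. *Arg1* was highest in LDAH-Tg PM (109 TPM) and *Mrc1* lowest in LDAH-KO PM (106 TPM), *Folr2* was higher in both groups of the KO line, and *Chil4* is listed at 0 in all 4 groups.

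Only genes with a mean of at least 1 TPM over both groups and neither group at 0 were compared, and 0.5 TPM was added to both means before each log2 ratio was taken. This keeps 6 of the 10 genes in the Tg line and 7 in the KO line. *Mgl2* and *Pdcd1lg2* were under this level in both comparisons, *Chil3* was under it in the Tg line alone, and *Chil4* has no ratio. A factor of 1.5 served as the size that is counted. In LDAH-Tg PM against WT PM of the Tg line, 0 of the 6 genes reached it, where 1.95% of 11395 genes did. At a factor of 1.2 it was 1 of 6, *Arg1*, where 19.7% of all genes reached that size. Of the 6 genes 4 were lower by any amount, against 49.5% of all genes, and their median log2 ratio was -0.08, with 0.002 for all genes. With 6 genes, none of these shares sets the group apart from all genes.

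In LDAH-KO PM against WT PM of the KO line, 0 of 7 genes reached a factor of 1.5, where 2.22% of 11289 genes did. At a factor of 1.2 it was 1 of 7, *Mrc1*, where 18.8% of all genes reached that size. Of the 7 genes 5 were lower, close to the 66.6% of all genes that were lower in this comparison. Their median log2 ratio was -0.05, against -0.08 for all genes. With the groups scaled to a median ratio of 1, or brought to one distribution by quantile normalization, 2 of the 7 were lower, where 50.0% and 47.6% of all genes were lower and the median of all genes was 0 and 0.009. The direction of *Il4ra*, *Klf4* and *Retnla* in LDAH-KO PM thus depended on the scaling.

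**Figure D2:**
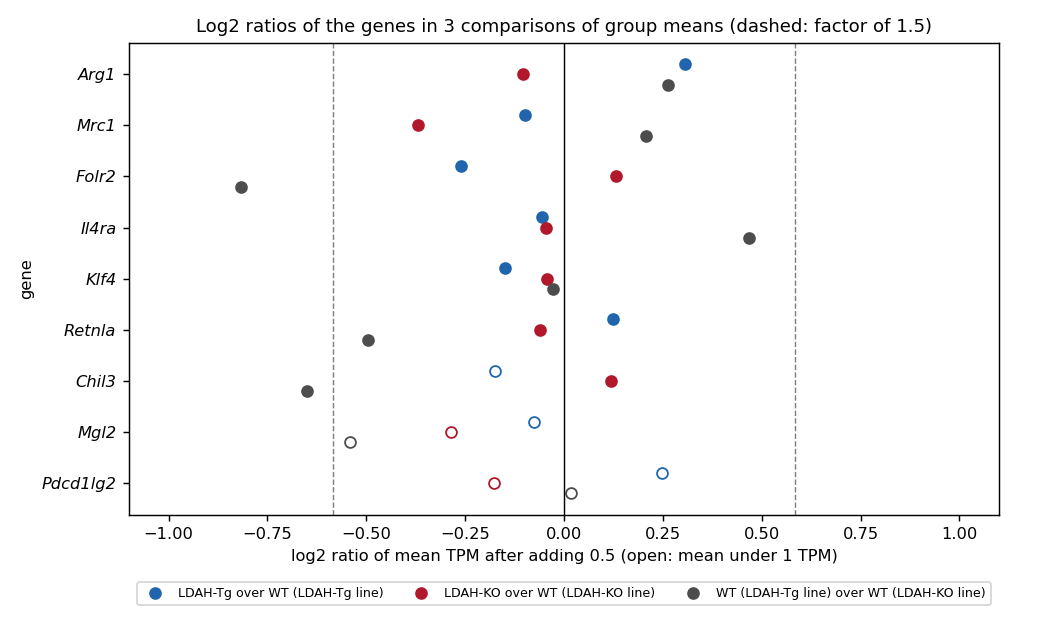
Points give the log2 ratio of the authors' mean TPM after adding 0.5 for 9 genes in 3 comparisons (LDAH-Tg over WT of the Tg line in blue, LDAH-KO over WT of the KO line in red, WT of the Tg line over WT of the KO line in gray), open where the mean over both groups was under 1 TPM; dashed lines mark a factor of 1.5. *Arg1* (0.31 in LDAH-Tg PM) and *Mrc1* (-0.37 in LDAH-KO PM) lay farthest from 0 among the filled points of the genotype comparisons, both short of that factor, and *Il4ra*, *Klf4* and *Retnla* lay between -0.06 and -0.04 in LDAH-KO PM, with signs that turned under other scalings.

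*Il4ra* (ENSMUSG00000030748.9, chromosome 7 of GRCm38, 125552120 to 125579474, plus strand) encodes the α chain shared by the IL-4 and IL-13 receptors. Its mean was 20.6 TPM in LDAH-Tg PM against 21.4 TPM in WT PM of the Tg line, a log2 ratio of -0.06. In the KO line it was 14.9 TPM in LDAH-KO PM and 15.4 TPM in WT PM, a log2 ratio of -0.05 that became 0.03 with median-ratio scaling and 0.06 with quantile normalization. Within each line the receptor gene thus differed little between the means, and its larger difference lay between the lines. The antisense gene *Gm44876* within its locus is listed at 0 in all 4 groups.

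The partner chains and kinases of the receptor were taken as a list of 15 genes with *Il4ra* among them. Of the 12 compared in each line, 0 reached a factor of 1.5 in either genotype. Only 1.95% of all genes reached it in LDAH-Tg PM and 2.22% in LDAH-KO PM. In LDAH-Tg PM 5 were higher and 7 lower by any amount (median log2 ratio -0.05), where 49.5% of all genes were lower. In LDAH-KO PM 3 were higher and 9 lower (median -0.12), where 66.6% of all genes were lower. Under either scaling it was 5 higher and 7 lower there, where 50% and 47.6% of all genes were lower. *Stat6*, the transcription factor of the pathway, had 73.5 TPM in LDAH-Tg PM against 73.2 TPM in WT PM of the Tg line. In the KO line it had 101 TPM in LDAH-KO PM and 112 TPM in WT PM, a log2 ratio of -0.14. The common γ chain *Il2rg*, which pairs with the α chain for IL-4, was of like level in all groups (65.4 TPM in LDAH-Tg PM against 75.7 TPM in WT PM of the Tg line, 68.7 TPM in LDAH-KO PM and 71.4 TPM in WT PM of the KO line). *Il13ra1*, the partner chain for IL-13, had the ratio farthest from 0 in this list, with 12.6 TPM in LDAH-Tg PM against 16.5 TPM in WT PM of the Tg line (log2 ratio -0.38) and 25.3 TPM in LDAH-KO PM against 28.4 TPM in WT PM of the KO line (-0.16).

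Other components stood close behind. *Socs1*, which restrains Janus kinase signalling, had 2.47 TPM in LDAH-KO PM against 1.83 TPM in WT PM of the KO line (log2 ratio 0.35). *Irs2*, an adaptor of the IL-4 receptor, went the other way there, with 2.26 TPM in LDAH-KO PM and 3.03 TPM in WT PM (-0.35). The kinase gene *Jak3*, whose product binds the γ chain, had 6.23 TPM in LDAH-Tg PM against 4.95 TPM in WT PM of the Tg line (0.30). The ligands were near absent: *Il13* is listed at 0 in all groups, and *Il4* had 0.205 TPM in LDAH-Tg PM, 0.074 TPM in WT PM of the Tg line, 0.116 TPM in WT PM of the KO line and is listed at 0 in LDAH-KO PM.

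*Klf4* (ENSMUSG00000003032.8, chromosome 4, 55527143 to 55532466, minus strand) encodes a zinc finger factor that cooperates with STAT6 in alternatively activated macrophages. It was the most even of the 9 genes with values, with a log2 range of 0.18 over the 4 groups. Its means were 4.29 TPM in LDAH-Tg PM against 4.81 TPM in WT PM of the Tg line, a log2 ratio of -0.15. In the KO line they were 4.75 TPM in LDAH-KO PM and 4.91 TPM in WT PM, a log2 ratio of -0.04 that turned to 0.03 with median-ratio scaling and 0.09 with quantile normalization.

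Among 14 regulators of the state, *Stat6* and *Klf4* included, 0 reached a factor of 1.5 in either genotype. Of all genes only 1.95% did in LDAH-Tg PM and 2.22% in LDAH-KO PM. In LDAH-Tg PM 8 of 13 were higher and 5 lower (median log2 ratio 0.01), where 49.5% of all genes were lower. In LDAH-KO PM 13 of 14 were lower, with a median of -0.16, where 66.6% of all genes were lower, with a median of -0.08. Under the median-ratio and quantile scalings 11 of 14 were lower, with medians of -0.08 and -0.12, where 50.0% and 47.6% of all genes were lower, with medians of 0 and 0.009. The histone demethylase gene *Kdm6b*, which acts upstream of *Irf4*, had 4.27 TPM in LDAH-Tg PM against 3.37 TPM in WT PM of the Tg line (log2 ratio 0.30), and 1.37 TPM in LDAH-KO PM against 2.09 TPM in WT PM of the KO line (-0.47). *Irf4*, a factor needed for the response to chitin and helminths in mice, had 0.759 TPM in LDAH-Tg PM against 0.645 TPM in WT PM of the Tg line, and 1.18 TPM in LDAH-KO PM and 1.58 TPM in WT PM of the KO line (-0.31).

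The lipid-sensing receptor *Pparg*, which sustains alternative activation and binds oxidized fatty acids, was abundant. It had 64.4 TPM in LDAH-Tg PM against 72.0 TPM in WT PM of the Tg line (log2 ratio -0.16), and 151 TPM in LDAH-KO PM and 173 TPM in WT PM of the KO line (-0.19). Its coactivator *Ppargc1b* had 1.13 TPM in LDAH-KO PM against 1.60 TPM in WT PM of the KO line (-0.36). The circadian repressor gene *Bhlhe41* had 111 TPM in LDAH-KO PM against 134 TPM in WT PM of the KO line (-0.28).

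*Arg1* (ENSMUSG00000019987.8, chromosome 10, 24915221 to 24927484, minus strand) encodes arginase 1, which splits arginine into ornithine and urea. Its mean was 109 TPM in LDAH-Tg PM against 88.1 TPM in WT PM of the Tg line, a ratio of 1.24 and a log2 ratio of 0.31, the highest of the 6 genes compared in that line. Of all genes compared, 8.27% had a log2 ratio this high or higher. In the KO line the means were 68.2 TPM in LDAH-KO PM and 73.3 TPM in WT PM, a ratio of 0.930 and a log2 ratio of -0.10. The KO difference shrank to -0.03 with median-ratio scaling and -0.04 with quantile normalization, while the Tg difference stayed at 0.30 and 0.32. Thus *Arg1* was higher in the mean of LDAH-Tg PM and close to its controls in the mean of LDAH-KO PM. The paper describes *Arg1* as upregulated in LDAH-Tg PM from its own RNA-seq comparison, which cannot be repeated from means. Whether the 2 genotype effects differ was not tested.

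The wider arginine pathway showed no common direction in LDAH-Tg PM. Of 17 genes of arginine, ornithine and proline metabolism, 14 were compared in each line and 0 reached a factor of 1.5. The share of all genes that reached it was 1.95% in LDAH-Tg PM and 2.22% in LDAH-KO PM. In LDAH-Tg PM 7 were higher and 7 lower (median log2 ratio -0.03), where 49.5% of all genes were lower. In LDAH-KO PM 5 were higher and 9 lower, with a median of -0.06 that was 0.01 and 0.02 after the 2 scalings. As deposited, 66.6% of all genes were lower there, with a median of -0.08. *Odc1*, whose product turns ornithine into putrescine, was lower where *Arg1* was higher, with 17.3 TPM in LDAH-Tg PM against 21.2 TPM in WT PM of the Tg line (log2 ratio -0.29), and it had 52.2 TPM in LDAH-KO PM and 53.0 TPM in WT PM of the KO line. *Azin1*, an activator of that enzyme, had 67.9 TPM in LDAH-Tg PM against 83.2 TPM in WT PM of the Tg line (-0.29). The arginine transporter gene *Slc7a2*, itself induced by IL-4, had 2.59 TPM in LDAH-KO PM against 3.45 TPM in WT PM of the KO line (-0.35).

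Arginase 1 was by far the main arginase transcript. The mitochondrial enzyme gene *Arg2* had 0.384 TPM in LDAH-Tg PM against 0.194 TPM in WT PM of the Tg line, and 0.419 TPM in LDAH-KO PM and 0.230 TPM in WT PM of the KO line. *Arg1* exceeded it 284-fold, 455-fold, 163-fold and 319-fold in these 4 groups. With *Arg2* under 1 TPM in every group, these 4 folds are not compared with each other. *Nos2*, the inducible enzyme that uses the same arginine for nitric oxide, had 0.003 TPM in LDAH-Tg PM against 0.006 TPM in WT PM of the Tg line and is listed at 0 in both groups of the KO line. The 3 genes with profiles nearest to that of *Arg1* over the 4 group means, among 8994 genes of at least 5 TPM, were *Otud5*, *Cdk8* and *Tlr1*, at Euclidean distances of 0.031, 0.036 and 0.047 on the log2 scale. *Otud5*, the nearest, had 58.1 TPM in LDAH-Tg PM against 46.9 TPM in WT PM of the Tg line, and 36.7 TPM in LDAH-KO PM against 40.0 TPM in WT PM of the KO line. With 4 points in a profile many genes can lie this near.

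*Mrc1* (ENSMUSG00000026712.3, chromosome 2, 14229392 to 14332057, plus strand) encodes the mannose receptor CD206, which takes up glycoproteins and microbes that bear mannose. It was the most abundant of the 10 genes, with 147 TPM in LDAH-Tg PM against 158 TPM in WT PM of the Tg line, a log2 ratio of -0.10. In LDAH-KO PM the mean was 106 TPM, against 137 TPM in WT PM of the KO line, a ratio of 0.774 and a log2 ratio of -0.37, the lowest among the genes compared in either genotype. Of all genes compared in that line, 6.57% had a ratio this low or lower. The value was -0.29 with median-ratio scaling and -0.35 with quantile normalization. LDAH-KO PM thus had the lower mean, while LDAH-Tg PM lay near their control. *Mir511*, a microRNA in an intron of this gene, is listed at 0 in all 4 groups of these poly(A)-selected libraries.

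The ratio of *Arg1* to *Mrc1* set the 2 main genes against each other within a group. It was 0.741 in LDAH-Tg PM and 0.559 in WT PM of the Tg line, and 0.645 in LDAH-KO PM and 0.537 in WT PM of the KO line. Both genotypes therefore had more *Arg1* for each *Mrc1* transcript than their controls in the means. In the Tg line most of this came from the higher *Arg1* mean in LDAH-Tg PM. In the KO line it came from the lower *Mrc1* mean in LDAH-KO PM alone, since the *Arg1* mean was lower there too.

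*Mgl2* (ENSMUSG00000040950.13, chromosome 11, 70130329 to 70137550, plus strand) encodes CD301b, a lectin that binds galactose and N-acetylgalactosamine. Its means were 0.488 TPM in LDAH-Tg PM against 0.541 TPM in WT PM of the Tg line, and 0.742 TPM in LDAH-KO PM and 1.01 TPM in WT PM of the KO line, with log2 ratios of -0.08 and -0.29. Of the 100-base windows of its longest coding transcript, the length of 1 read, 5.92% also occur in its paralog *Clec10a*, so a read from these windows can stem from either gene. *Clec10a*, or CD301a, was expressed 17.0 times as highly as *Mgl2* in LDAH-Tg PM and 16.6 times in WT PM of the Tg line, and 15.4 times in LDAH-KO PM and 9.57 times in WT PM of the KO line. It had 8.29 TPM in LDAH-Tg PM against 8.96 TPM in WT PM of the Tg line, and 11.4 TPM in LDAH-KO PM against 9.71 TPM in WT PM of the KO line (log2 ratio 0.22). The folds over *Mgl2* rest on a gene near or under 1 TPM in every group.

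*Folr2* (ENSMUSG00000032725.10, chromosome 7, 101839988 to 101857194, minus strand) encodes folate receptor β, found on resident tissue macrophages. It had 24.0 TPM in LDAH-Tg PM against 28.9 TPM in WT PM of the Tg line, a log2 ratio of -0.26, and 8.66% of all genes had a ratio this low or lower. LDAH-KO PM had 56.2 TPM and WT PM of the KO line 51.2 TPM, a log2 ratio of 0.13 that 10.9% of genes reached or exceeded. It was thus lower in the mean of LDAH-Tg PM and higher in that of LDAH-KO PM, opposite to *Arg1* in both, and these signs held under both scalings. The ratio of *Folr2* to *Arg1* was 0.220 in LDAH-Tg PM against 0.328 in WT PM of the Tg line, and 0.824 in LDAH-KO PM against 0.698 in WT PM of the KO line. In the authors' table *Folr2* shares its locus with *Inppl1*, a neighbour of 38.1 to 48.3 TPM, and it overlaps the antisense gene *Gm10602* (0.678 to 1.25 TPM). The libraries mark the strand, but whether the counting used it is not given in the sources used here.

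The gene nearest to *Folr2* in profile was *1110008F13Rik*, at a distance of 0.013, with 125 TPM in LDAH-Tg PM against 149 TPM in WT PM of the Tg line and 292 TPM in LDAH-KO PM against 264 TPM in WT PM of the KO line. *Uqcc1* (0.032) and *Eif6* (0.038) followed. The related receptor gene *Folr1* was far below *Folr2*, with 0.522 TPM in LDAH-Tg PM against 1.19 TPM in WT PM of the Tg line, and 2.15 TPM in LDAH-KO PM and 1.93 TPM in WT PM of the KO line.

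The secreted proteins of the state were barely expressed. *Chil3* (ENSMUSG00000040809.10, chromosome 3, 106147554 to 106167564, minus strand) and *Chil4* (ENSMUSG00000063779.6, chromosome 3, 106201490 to 106219507, minus strand) encode the chitinase-like lectins Ym1 and Ym2, and *Retnla* (ENSMUSG00000061100.3, chromosome 16, 48842551 to 48844461, plus strand) encodes RELMα. STAT factors bind palindromes of TTC and GAA, and STAT6 prefers a spacer of 4 bases to one of 3. The RefSeq promoters of GRCm38.p6, which run from 250 bases before to 50 after a start, held an entry for 9 of the 10 genes. *Arg1* had no matched entry, so its promoter was not searched. The form TTCNNNNGAA occurs in *Retnla* and *Pdcd1lg2* and in 6.95% of all 32851 promoters, and the form TTCNNNGAA in *Chil3* and *Chil4* and in 8.30% of all. Both letter patterns are their own reverse complement, so 1 search covers both strands. The matches are shown with 10 bases on each side, with the motif in capitals, because they are the letters in these promoters that STAT factors are known to read; a match is a description and not a bound site. Counted from the RefSeq start of each gene, which for *Retnla* and *Chil4* is not the GENCODE start given by the coordinates above, and with -1 as the last base before it, the first motif base lies at -145 in *Retnla*, -82 in *Pdcd1lg2*, -172 in *Chil3* and -200 in *Chil4*.
Retnla chr16:48842454-48842483 plus strand: agaatcataaTTCACAAGAAattgctaaac
Pdcd1lg2 chr19:29410827-29410856 plus strand: catgctccagTTCCTCAGAAaccattctgg
Chil3 chr3:106167718-106167746 minus strand: aaatacccacTTCTTAGAAacatagctat
Chil4 chr3:106219661-106219689 minus strand: aaatacccacTTCTTAGAAacatagctat

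The *Chil3* and *Chil4* stretches are identical, and the transcripts are alike as well. Their longest coding transcripts share 1452 of 1540 aligned columns (94.3%), and 5.42% of the 100-base windows of *Chil3* occur in *Chil4* or the pseudogene *Gm6522*, while 3.75% of those of *Chil4* occur in *Chil3*. *Chil4* is listed at 0 in all 4 groups. *Chil3* had 0.740 TPM in LDAH-Tg PM against 0.900 TPM in WT PM of the Tg line, and 1.89 TPM in LDAH-KO PM and 1.70 TPM in WT PM of the KO line. Its log2 ratio was -0.17 in the Tg line, where it was too low to be compared, and 0.12 in the KO line, where 12.6% of genes had a ratio as high. Both WT and KO groups of the KO line thus had more *Chil3* than either group of the Tg line. The related gene *Chil1*, which has a human ortholog, was also low, with 0.665 TPM in LDAH-Tg PM against 0.605 TPM in WT PM of the Tg line, and 0.333 TPM in LDAH-KO PM and 0.405 TPM in WT PM of the KO line.

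*Retnla*, whose promoter holds the form TTCNNNNGAA, had 1.31 TPM in LDAH-Tg PM against 1.16 TPM in WT PM of the Tg line, a log2 ratio of 0.12. In the KO line it had 1.74 TPM in LDAH-KO PM and 1.84 TPM in WT PM, a log2 ratio of -0.06 that became 0.0008 with median-ratio scaling and 0.05 with quantile normalization. In LDAH-Tg PM, 27.0% of all genes had a ratio as high as that of *Retnla* or higher. *Retnlg*, a neutrophil member of the family, is listed at 0 in 3 groups and had 0.033 TPM in LDAH-KO PM.

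*Pdcd1lg2* (ENSMUSG00000016498.9, chromosome 19, 29410919 to 29471161, plus strand) encodes PD-L2, a ligand of the inhibitory receptor PD-1 on T cells, and is induced by IL-4 in macrophages. It had the highest plain ratio of the 10 genes in LDAH-Tg PM and the lowest in LDAH-KO PM, at levels too low for a comparison. Its means were 0.411 TPM in LDAH-Tg PM against 0.266 TPM in WT PM of the Tg line, a ratio of 1.54 with no value added. In the KO line they were 0.170 TPM in LDAH-KO PM and 0.257 TPM in WT PM, a ratio of 0.660. After adding 0.5 the log2 ratios were 0.25 and -0.18. The antisense gene *A930007I19Rik* (1.78 to 2.80 TPM), which overlaps it, had the higher level in every group. The paralog *Cd274*, which encodes PD-L1, was the main ligand, with 85.2 TPM in LDAH-Tg PM against 85.9 TPM in WT PM of the Tg line, and 93.7 TPM in LDAH-KO PM and 108 TPM in WT PM of the KO line (log2 ratio -0.20).

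**Figure D3:**
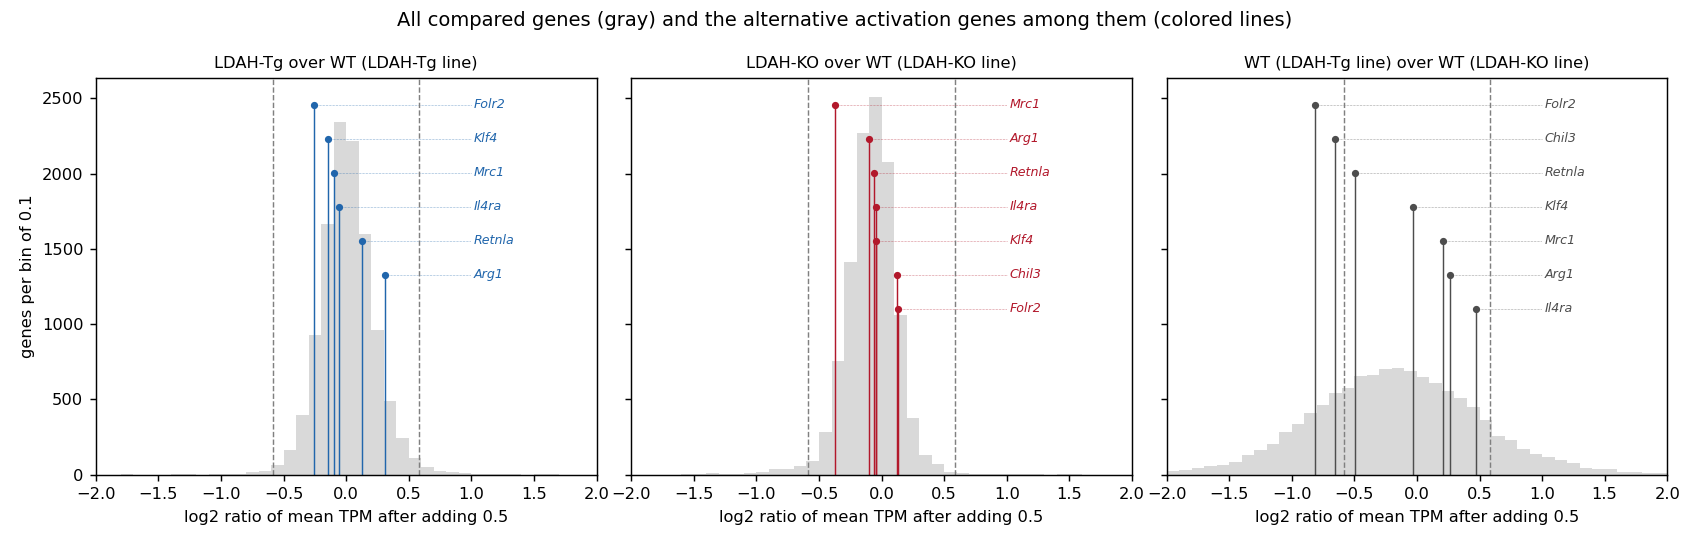
Gray bars count all genes compared by their log2 ratio of mean TPM after adding 0.5, in bins of 0.1 and in 3 panels, from left to right LDAH-Tg over WT of the Tg line (11395 genes), LDAH-KO over WT of the KO line (11289 genes) and WT of the Tg line over WT of the KO line (11404 genes), cropped at 2 on either side; colored stems mark those of the 10 genes that were compared, at heights chosen only for reading, and dashed lines mark a factor of 1.5. In the genotype panels 0 of 6 and 0 of 7 genes pass the lines, and in the panel of the WT lines *Folr2* and *Chil3* do; the signs of *Il4ra*, *Klf4* and *Retnla* in LDAH-KO PM, and of *Klf4* between the WT lines, depend on the scaling.

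The means of the 2 WT groups differed more than those of either genotype and its controls. This comparison shares its control samples with both genotype comparisons. Line, genotype label and any difference in handling between the 2 sets of samples cannot be told apart in it. In WT PM of the Tg line against WT PM of the KO line, 2 of 7 genes reached a factor of 1.5, *Folr2* and *Chil3*, both lower in the Tg line, where 38.6% of 11404 genes reached that size. Their share is thus no higher than that of all genes. The median log2 ratio of all genes was -0.17 here, a shift that the scalings remove, and that of the 7 genes was -0.03.

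*Folr2* had a log2 ratio of -0.82 between the WT groups, -0.63 with median-ratio scaling and -0.58 with quantile normalization, which is just under the factor. *Chil3* had -0.65, with -0.52 and -0.60 after the scalings. *Retnla* (-0.50) was also lower in WT PM of the Tg line, as was *Mgl2* (-0.54), under 1 TPM over both groups. *Il4ra* was higher in WT PM of the Tg line, with a log2 ratio of 0.47 that passed the factor at 0.65 and 0.71 after the scalings, and *Arg1* (0.26) and *Mrc1* (0.21) were higher as well. *Klf4* had -0.03, and 0.14 and 0.10 after the scalings. *Stat6* (-0.61) was lower in WT PM of the Tg line, so that *Stat6* exceeded *Il4ra* 3.41-fold there and 7.27-fold in WT PM of the KO line.

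Further genes that IL-4 induces were taken as a list of 23, of which 12 were under 1 TPM in every group and 10 could be compared. In LDAH-Tg PM 0 of the 10 reached a factor of 1.5, where 1.95% of all genes did. There 5 were higher and 5 lower (median log2 ratio -0.04), where 49.5% of all genes were lower. In LDAH-KO PM 1 was lower by that factor and 0 higher, where 2.22% of all genes reached it in either direction. By any amount 3 were higher and 7 lower in LDAH-KO PM. Their median was -0.20, and -0.12 with median-ratio scaling and -0.16 with quantile normalization. Of all genes 66.6% were lower in that comparison, with a median of -0.08 as deposited and 0 and 0.009 under these scalings. As deposited, 7 of 10 thus lies near the share of all genes. Under median-ratio scaling 6 of 10 were lower, where 50% of all genes were. Under quantile normalization it was 7 of 10, where 47.6% of all genes were lower. The 1 gene past the factor was *Ccl7*, a chemokine that attracts monocytes, with 4.46 TPM in LDAH-KO PM against 8.51 TPM in WT PM of the KO line (log2 ratio -0.86). *Ptgs1*, which encodes cyclooxygenase 1, was just short of it, with 6.68 TPM in LDAH-KO PM against 10.2 TPM in WT PM of the KO line (-0.58).

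In the Tg line the lowest ratios of this list were those of *Cd200r1*, *Clec7a* and *Ear2*, a ribonuclease gene (log2 ratio -0.39). *Clec7a*, or dectin-1, had 379 TPM in LDAH-Tg PM against 502 TPM in WT PM of the Tg line (log2 ratio -0.41), and 1602 TPM in LDAH-KO PM against 1804 TPM in WT PM of the KO line (-0.17). *Cd200r1*, an inhibitory receptor, had 74.4 TPM in LDAH-Tg PM against 99.3 TPM in WT PM of the Tg line (-0.41), and 238 TPM in LDAH-KO PM against 239 TPM in WT PM of the KO line (-0.01). Both had levels in the KO line well above those in the Tg line, as did *Folr2*.

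**Figure D4:**
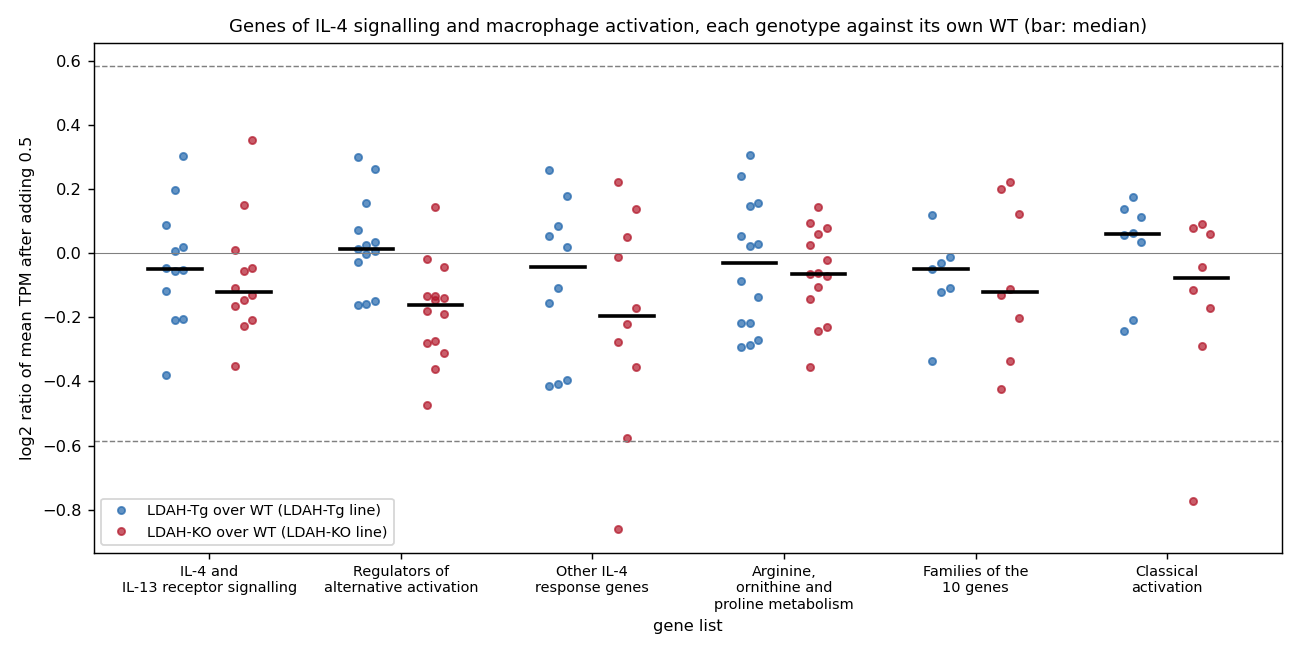
Each point is the log2 ratio of mean TPM after adding 0.5 of 1 gene of 6 lists, in LDAH-Tg PM over WT PM of the Tg line (blue, left) and LDAH-KO PM over WT PM of the KO line (red, right); black bars are medians over the genes drawn, and dashed lines mark a factor of 1.5. The 6 medians lie between -0.05 and 0.06 for LDAH-Tg and between -0.20 and -0.06 for LDAH-KO, next to -0.08 over all genes of that line, and the arginine list had 0.01 and 0.02 there under other scalings; *Ccl7* and *Ccl5* are the 2 points below the factor.

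Relatives of the 10 genes formed a list of 21, of which 5 are listed at 0 in all groups. Of 7 compared in LDAH-Tg PM and 8 in LDAH-KO PM, 0 reached a factor of 1.5, where 1.95% and 2.22% of all genes did. In LDAH-Tg PM 1 was higher and 6 lower (median log2 ratio -0.05), where 49.5% of all genes were lower. In LDAH-KO PM 3 were higher and 5 lower (median -0.12), where 66.6% of all genes were lower, with a median of -0.08. *Klf3* had 16.0 TPM in LDAH-KO PM against 21.6 TPM in WT PM of the KO line (-0.42). *Ly75*, a relative of the mannose receptor, had 5.97 TPM in LDAH-Tg PM against 7.66 TPM in WT PM of the Tg line (-0.34), and 11.4 TPM in LDAH-KO PM against 14.5 TPM in WT PM of the KO line (-0.34).

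Genes of classical activation, the state driven by interferon γ and lipopolysaccharide, were set beside them as a list of 18. Of these, 9 were under 1 TPM in every group. In LDAH-Tg PM 0 of 8 reached a factor of 1.5, where 1.95% of all genes did. By any amount 6 were higher and 2 lower (median log2 ratio 0.06). Of all genes 49.5% were lower there. In LDAH-KO PM 1 of 8 was lower by that factor, where 2.22% of all genes reached it in either direction. It was the chemokine gene *Ccl5*, with 0.928 TPM in LDAH-KO PM against 1.94 TPM in WT PM of the KO line (log2 ratio -0.77). By any amount 3 were higher and 5 lower, where 66.6% of all genes were lower. The median of the 8 was -0.08, and -0.002 and -0.009 after the scalings. Neither activation list thus had more than 1 gene past the factor in either genotype.

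Markers of other cells that express some of the 10 genes were measured beside them. All 9 markers of T cells and type 2 lymphocytes and all 6 of mast cells and basophils were under 1 TPM in every group, with summed levels of 0.416 to 0.940 TPM and 0.338 to 1.61 TPM, and *Il13*, *Mcpt4* and *Mcpt8* are listed at 0 throughout. Of 6 eosinophil markers 5 were under 1 TPM everywhere, *Epx* and *Ear6* are listed at 0, and the sum was 2.67 TPM in LDAH-Tg PM against 3.18 TPM in WT PM of the Tg line, and 4.30 TPM in LDAH-KO PM and 4.56 TPM in WT PM of the KO line. The 7 dendritic cell markers summed to 307 TPM in LDAH-Tg PM against 316 TPM in WT PM of the Tg line, and to 297 TPM in LDAH-KO PM and 407 TPM in WT PM of the KO line, nearly all of it *Itgax*, which macrophages also express, with the other 6 under 1 TPM. *Itgax* was lower in the mean of LDAH-KO PM (log2 ratio -0.46), as was *Mrc1*, where 66.6% of all genes were lower. Whether the 2 are linked was not tested.

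The 6 fibroblast and mesothelial markers had a sum of 17.3 TPM in LDAH-KO PM against 34.1 TPM in WT PM of the KO line. The sum was 21.6 TPM in LDAH-Tg PM against 23.2 TPM in WT PM of the Tg line, and 0 of the 6 are listed at 0 in all groups. In LDAH-KO PM 5 of 5 compared were lower by a factor of 1.5, where 2.22% of all genes reached that size in either direction. Their median log2 ratio there was -0.94, against -0.08 for all genes. In LDAH-Tg PM 0 of 4 compared reached the factor, where 1.95% of all genes did. The 6 neutrophil markers summed to 129 TPM in LDAH-Tg PM against 133 TPM in WT PM of the Tg line. In the KO line the sum was 92.1 TPM in LDAH-KO PM and 87.8 TPM in WT PM. Most of it was *S100a8* (63.8 to 107 TPM), followed by *Csf3r* (13.7 to 24.4 TPM) and *Mmp8* (5.49 to 10.1 TPM). *S100a9* had at most 0.740 TPM, *Retnlg* at most 0.033 TPM, and *Ly6g* is listed at 0. The 5 B cell markers summed to between 12.2 and 21.1 TPM, mostly *Ighm*. The 6 markers of large PM summed to 21.4 TPM in LDAH-Tg PM against 26.8 TPM in WT PM of the Tg line and to 35.9 TPM in LDAH-KO PM against 30.0 TPM in WT PM of the KO line, most of it *Fcna* (13.8 TPM in LDAH-Tg PM, 18.6 TPM in WT PM of the Tg line, 27.8 TPM in LDAH-KO PM and 22.6 TPM in WT PM of the KO line). The sum lay in the same order over the groups as *Folr2*, while *Gata6*, lowest in LDAH-KO PM (1.11 TPM), and *Icam2*, lowest in WT PM of the KO line (4.52 TPM), did not. The list for small and monocyte-derived PM holds *Retnla*, *Mrc1* and *Folr2* themselves and is no separate measure. The macrophage gene *Adgre1*, which encodes F4/80, had 22.4 TPM in LDAH-Tg PM against 33.1 TPM in WT PM of the Tg line (log2 ratio -0.55), and 147 TPM in LDAH-KO PM and 146 TPM in WT PM of the KO line, and so differed in the same direction as *Folr2* in the Tg line and between the lines. Of the 7 macrophage markers compared between the WT groups, *Lyz2* being left out, 3 were higher and 4 lower in WT PM of the Tg line, with a median log2 ratio of -0.01, and *Cd68* (0.58) and *Fcgr1* (0.40) were among the higher. The part of these differences in the values of the 10 genes was not tested.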

How the data were processed

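RNA of oxLDL-treated PM (4 samples each of LDAH-Tg, WT of the Tg line, LDAH-KO and WT of the KO line) was sequenced by the authors as poly(A)-enriched, stranded, paired reads of 100 bases. Reads were aligned to mm10 (GRCm38) with STAR 2.4.2a, and the submitters' processing notes also name Cuffdiff 2.2.1, bcl2fastq 2.17.1.14, HTSeq, Trimmomatic and DESeq2. The tool and annotation release behind the TPM are not given in the sources used here. The deposited table gives 1 mean TPM for each group, made by the authors, over 48432 genes. Each column sums to 1000000, and 1 line without a gene, which holds this total, was left out. With no value per sample, the planned limma test could not be run, and the depth is unknown.

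Log2 ratios were taken after adding 0.5 to the mean TPM, which understates the difference of low genes. Pseudocounts of 0.1 and 1, no filter, a minimum of 5 TPM, median-ratio scaling, quantile normalization and factors of 1.2 and 2 were tried, and no pseudocount, with and without the filter, was added after seeing the data. The 10 genes, the 6 gene lists, the 10 marker lists and the settings were chosen with earlier results of these data known. Named beside the 10 genes are up to 4 genes of each list with the largest ratios, genes that define a role, and the 3 genes nearest in profile to *Arg1* and to the gene of widest range; *Adgre1*, *Itgax*, *Fcna*, other marker genes, *Ear2* and genes overlapping the 10 were named after their values were seen. Of the gene IDs 99.2% are in GENCODE M21, the source of coordinates, and where a symbol had several entries (116 extra in all) the entry of highest mean was used. Promoters are from RefSeq. The ratio step was tried on simulated data, with changes planted only in genes of at least 5 TPM. The scalings were not tried in this way. Python 3.11.15, numpy 2.4.6, pandas 2.3.3, biopython 1.88 and matplotlib 3.10.9 were used.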

Additional observations from a re-analysis of the deposited data

How the results depend on the processing

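No paired analysis was possible because the values are group means, and for the same reason no value without a single replicate could be had. The counts of genes past a factor of 1.5 (0 of 6 for LDAH-Tg and 0 of 7 for LDAH-KO against their own WT PM) were 0 under both other pseudocounts, both other filters, both scalings and a factor of 2. With a factor of 1.2 they were 1 (*Arg1*) and 1 (*Mrc1*). With neither filter nor pseudocount, a setting chosen after seeing the data, they were 1 and 1 of 9, *Pdcd1lg2* both times (log2 ratios of 0.62 and -0.60), where 20.4% and 21.3% of all genes reached a factor of 1.5, as low values do without a pseudocount. The median over the 7 genes in LDAH-KO PM (-0.05) was 0.028 with median-ratio scaling and 0.062 with quantile normalization. In WT PM of the Tg line over WT PM of the KO line, the count of 2 was 3 with a pseudocount of 0.1 and 3 with no pseudocount, where *Retnla* also reached the factor (-0.62 and -0.67), 1 with a pseudocount of 1, 1 with a minimum of 5 TPM, 0 with a factor of 2, 4 with a factor of 1.2 and 4 with neither filter nor pseudocount, where 49.7% of all genes reached the factor. The median there (-0.03) was 0.23 with a minimum of 5 TPM, which leaves 4 of the genes, 0.14 with median-ratio scaling and 0.10 with quantile normalization. Of 135 ratios of single genes under the alternatives, 101 moved by less than 0.1 on the log2 scale and 34 by more, and 8 changed sign: those of *Il4ra*, *Klf4* and *Retnla* in LDAH-KO PM and of *Klf4* between the WT groups, under both scalings.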
